A study of Mus musculus with 2 samples.

Results

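Of the 26844 peaks analysed in the optimal list of EP300 binding in newborn mouse liver, 1781 were distal peaks whose summit base is soft-masked, which means written in lower case in the reference genome. They were chosen by 2 conditions. The summit lay more than 1 kb and at most 100 kb from the nearest protein-coding transcription start site (TSS), as 18416 summits did, and its base was lower case in the GRCm38 sequence. The share of distal summits that met the second condition was 9.67% (exact Clopper-Pearson 95% interval 9.25 to 10.1). The working name of these peaks is distal peaks in repeat sequence, which the sequences could be checked against only in part. The lower-case run that held the summit had a median length of 29 bases, and 74.1% of the peaks had runs under 50 bases, too short to be joined to related copies in the grouping used below. Whether such short runs are copies of repeats was not tested. The peaks are therefore called masked-summit peaks here, after the rule. The program that set the lower case was not known, and no catalogue of repeat families was used.

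The data are chromatin immunoprecipitation sequencing (ChIP-seq) with an antibody to EP300 in liver tissue of mice of strain B6NCrl, postnatal, aged 0 days. There was 1 group of 2 replicates, numbered as biological replicates but with the same biosample and donor labels. Differences between them may therefore be those of 2 libraries from 1 source rather than of animals, and whether that source was a pool was not stated. No genotype change, treatment or second condition was labelled, so each comparison is between classes of peaks within this group. The tissue label was set beside marker genes. These were chosen with earlier results of these data known, so they are no independent check. Of the hepatocyte markers 5 of 5 and of the erythroid markers 6 of 6 had a peak within 10 kb, while 0 of 3 Kupffer cell, 0 of 2 muscle and 0 of 2 neuron markers did. Of the endothelial markers 2 of 3 had one. In longer gene lists, distal peaks were nearest to 34 of 42 erythroid genes and 17 of 27 genes of hepatocyte secreted proteins. They were also nearest to 6 of 18 macrophage and Kupffer cell genes, 4 of 18 neuron genes and 2 of 18 muscle genes.

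EP300 is a histone acetyltransferase that transcription factors bring to active enhancers and promoters. The newborn liver still holds blood-forming cells beside hepatocytes, and enhancers of red cell precursors are commonly bound by GATA factors with basic helix-loop-helix partners. Much of a mammalian genome derives from mobile elements such as SINEs, LINEs and retroviral copies, which occur in many similar places, and from tandem repeats of short units. Some copies carry sequences that transcription factors recognise. Soft-masking is meant to mark repeated sequence in lower case.

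Windows of 61 bases around the summits of 4 strong masked-summit peaks show how short the masked stretch was. Capitals mark the masked run, the sequences are the plus strand of GRCm38 from 5′ to 3′, and the summit is the middle base.
Rnf145, chr11:44509049-44509109: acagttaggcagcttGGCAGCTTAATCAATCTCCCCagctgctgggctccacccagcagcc
F2rl2, chr13:95671589-95671649: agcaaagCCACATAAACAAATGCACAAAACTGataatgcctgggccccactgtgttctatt
Hbb-y, chr7:103859246-103859306: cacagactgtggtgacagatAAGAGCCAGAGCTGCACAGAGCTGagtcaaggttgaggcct
Lmo2, chr2:103893945-103894005: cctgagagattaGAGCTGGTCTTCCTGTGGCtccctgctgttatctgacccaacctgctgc
Each run was shorter than the window, with 21, 25, 24 and 19 bases in this order, and unmasked sequence stood on both sides of it.

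Wider windows, with 50 bases on either side, show for 4 summits where the GATA sequence stood. Capitals now mark matches on either strand to 1 of 4 GATA sequences, which are AGATAA and AGATAG and the same with T as the first base (TGATAA and TGATAG).
F2rl2, chr13:95671569-95671669: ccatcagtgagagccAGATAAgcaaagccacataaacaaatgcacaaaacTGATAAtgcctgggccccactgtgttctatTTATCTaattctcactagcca
Hbb-y, chr7:103859226-103859326: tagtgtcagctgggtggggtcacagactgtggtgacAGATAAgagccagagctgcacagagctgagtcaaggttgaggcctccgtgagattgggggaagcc
Lmo2, chr2:103893925-103894025: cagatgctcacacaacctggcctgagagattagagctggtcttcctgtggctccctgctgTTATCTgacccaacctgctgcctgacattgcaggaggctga
Aqp1, chr6:55339615-55339715: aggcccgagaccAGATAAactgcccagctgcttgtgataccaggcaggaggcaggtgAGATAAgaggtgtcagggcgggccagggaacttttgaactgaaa
At F2rl2 and Aqp1 more than one match stood in the window.

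A minority of the peaks did hold copies of a recurring sequence. The next sequences are the masked stretch within 100 bases of the summit for peaks of the 5 largest groups, turned to the strand of the group's most linked member, with GATA matches in capitals. They are shown so that the copies can be compared.
Group 1, Ccnd3, chr17:47568546-47568652, minus strand: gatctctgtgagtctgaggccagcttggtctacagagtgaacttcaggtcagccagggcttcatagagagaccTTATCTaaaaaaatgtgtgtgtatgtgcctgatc
Group 1, Trim14, chr4:46527313-46527395, minus strand: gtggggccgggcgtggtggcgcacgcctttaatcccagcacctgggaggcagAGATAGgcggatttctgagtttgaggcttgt
Group 1, Syne3, chr12:105011646-105011777, plus strand: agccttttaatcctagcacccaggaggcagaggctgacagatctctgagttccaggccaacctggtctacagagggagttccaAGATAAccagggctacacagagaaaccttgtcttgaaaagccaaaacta
Group 2, Kidins220, chr12:24943614-24943719, plus strand: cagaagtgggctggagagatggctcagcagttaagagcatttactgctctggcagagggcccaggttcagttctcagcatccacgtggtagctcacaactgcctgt
Group 2, Pak1ip1, chr13:40987704-40987808, minus strand: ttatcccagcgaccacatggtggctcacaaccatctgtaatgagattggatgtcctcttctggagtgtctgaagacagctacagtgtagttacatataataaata
Group 3, Jmy, chr13:93428249-93428326, plus strand: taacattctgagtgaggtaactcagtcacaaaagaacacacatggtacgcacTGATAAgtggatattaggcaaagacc
Group 3, Golim4, chr3:75963191-75963369, plus strand: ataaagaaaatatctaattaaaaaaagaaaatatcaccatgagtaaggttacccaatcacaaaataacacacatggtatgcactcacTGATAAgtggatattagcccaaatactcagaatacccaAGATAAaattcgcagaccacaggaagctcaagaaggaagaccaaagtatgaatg
Group 3, Adora2b, chr11:62164478-62164631, minus strand: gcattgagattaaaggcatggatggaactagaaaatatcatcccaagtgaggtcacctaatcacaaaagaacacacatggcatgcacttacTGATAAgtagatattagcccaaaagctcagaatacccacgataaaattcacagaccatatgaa
Group 4, Pced1b, chr15:97397842-97397981, minus strand: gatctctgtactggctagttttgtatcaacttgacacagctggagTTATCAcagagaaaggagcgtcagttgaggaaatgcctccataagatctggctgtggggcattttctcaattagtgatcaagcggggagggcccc
Group 4, Tspan12, chr6:21789676-21789803, plus strand: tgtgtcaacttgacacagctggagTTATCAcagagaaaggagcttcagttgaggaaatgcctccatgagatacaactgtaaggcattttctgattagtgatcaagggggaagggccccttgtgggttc
Group 5, Dnajb12, chr10:59873513-59873660, plus strand: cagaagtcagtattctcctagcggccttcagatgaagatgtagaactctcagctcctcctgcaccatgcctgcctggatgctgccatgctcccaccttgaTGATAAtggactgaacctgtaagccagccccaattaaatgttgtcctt
The 3 copies of group 3 shown share a GATA match in the same surroundings, and so do the 2 copies of group 4 shown. The 3 copies of group 1 shown carry theirs in different surroundings.

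Distal EP300 summits lay in masked sequence much less often than the surrounding genome. Of all bases 1 to 100 kb from a TSS (1547 Mb), 33.0% are soft-masked, 3.41 times the 9.67% of the summits. The share of summits hardly moved with distance from the TSS. It was 9.69% at 1 to 5 kb, 9.89% at 5 to 10 kb, 9.52% at 10 to 25 kb, 9.85% at 25 to 50 kb and 9.39% at 50 to 100 kb, and the intervals of all these shares overlapped. The territory's own share went from 28.5% in the nearest of these ranges to 34.6% in the farthest. Summits outside the distance range had similar values, with 8.34% of 6294 summits at most 1 kb from a TSS and 9.61% of 2134 beyond 100 kb. By chromosome the share lay between 6.86% (X, 19 peaks) and 11.8% (chromosome 15, 87 peaks).

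The share was lowest at the summit and rose on both sides, without reaching that of the territory. At 2000 bases from the summit 26.5% and 26.1% of distal peaks were in masked sequence on the left and right sides, below the 33.0% of all bases 1 to 100 kb from a TSS. At 200 bases the values were 18.2% and 19.7%, and at 100 bases 13.9% and 13.7%. The masked-summit peaks themselves, all masked at the summit by the rule, were down to 24.99% and 24.1% at 100 bases, with 24.8% and 27.3% at 200 bases and 27.8% and 29.6% at 2000 bases. At 100 bases their masked share was thus already below its own value at 2000 bases, on both sides.

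**Figure D1:**
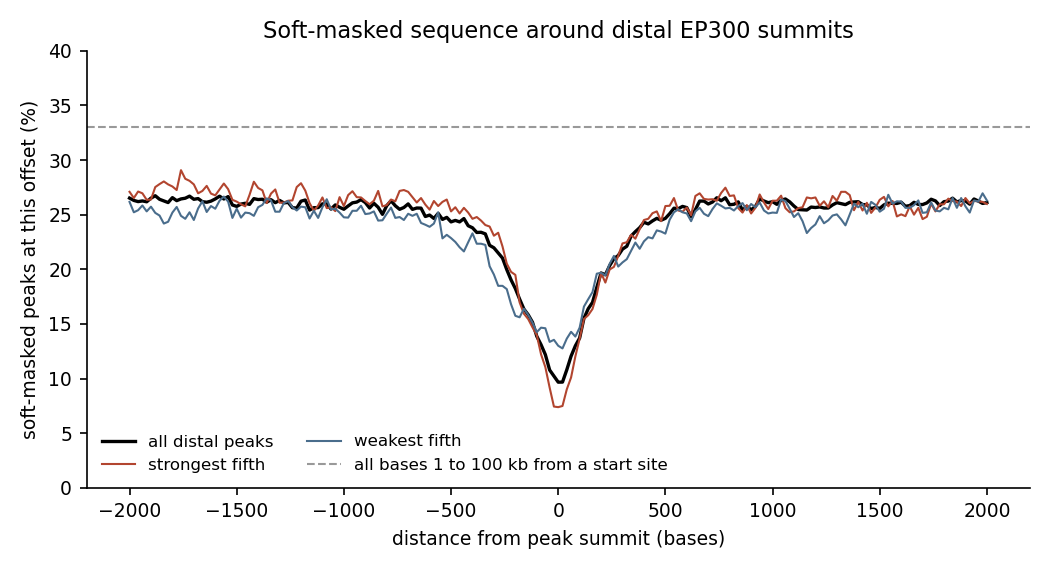
Share of distal peaks (y axis, percent) whose base at a given distance from the summit (x axis, bases) is soft-masked, for all distal peaks and for the strongest and weakest 20% by signal, with the share of all bases 1 to 100 kb from a TSS as a dashed line. The curves of all distal peaks and of the strongest 20% are lowest at the summit, 9.67% and 7.38%, and that of the weakest 20% is lowest 20 bases from it, 12.76% against 13.002% at the summit.

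Short masked runs made up most of these peaks, and long ones were scarce. The classes of run length were chosen after the lengths had been seen. Runs under 50 bases held 1320 summits (74.1%, interval 72.0 to 76.1), runs of 50 to 99 bases 283 (15.9%, 14.2 to 17.7) and runs of 100 bases or more 178 (9.99%, 8.64 to 11.5). In the masked territory the same classes make up 29.2%, 16.03% and 54.8% of the bases. Long runs thus held 0.967% of the distal summits against 18.1% of the territory, 18.7 times as much, while runs under 50 bases held 7.17% against 9.63%, 1.34 times as much. The deficit was therefore mostly one of long runs.

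Within its run the summit lay a median of 7 bases from the nearer edge. Runs went from 19 to 1209 bases, with 23 and 51 bases at the quartiles. A median of 36.6% of the bases within 50 of a masked summit were masked, against 0% around the other distal summits. At 344 of the peaks an unmasked base lay within 3 bases of the summit. Another 332 distal peaks missed the rule with a masked base that close. Those just inside and just outside this edge had median signals of 34.6 and 34.99.

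The distance limits also cut between similar peaks. Just above 1 kb lay masked-summit peaks of Cth (1002 bases, signal 39.6) and Cep350 (1026 bases, 23.2), and just within 1 kb those of Sdc4 (999 bases, 32.7) and Tfrc (995 bases, 40.05). At the far limit Sntb1 (98709 bases, 27.0) was inside, and Plcl1 (100145 bases, 14.3) outside.

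Masked-summit peaks were slightly weaker than the other distal peaks in both replicates. The signal value is the authors' own score per peak, whose scale is not stated, so it is compared only within a list. Its median in the optimal list was 34.0 (order-statistic 95% interval 32.7 to 34.8) against 39.5 (38.9 to 39.98) for the 16635 other distal peaks, a log2 ratio of -0.22. Replicate 1 gave 24.3 against 27.6 and replicate 2 gave 12.8 against 14.5, log2 ratios of -0.18 and -0.19. Replicate values are those of the strongest peak that overlaps, found for 1779 and 1724 of the masked-summit peaks. The distributions overlapped widely: the middle 50% of the masked-summit peaks lay between 24.2 and 56.6, and that of the others between 27.0 and 68.3. No test was made over the 2 libraries, which come from 1 labelled source, nor over peaks, which are not replicates. The intervals cover the sampling of peaks only.

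Peaks with runs under 50 bases had the highest medians of the 3 run classes. Medians in the optimal list were 35.1 (34.1 to 36.4) for runs under 50 bases, 29.5 (27.4 to 32.7) for 50 to 99 bases and 28.9 (27.4 to 32.8) for longer ones. The last 2 did not differ beyond their intervals. In replicate 1 the same classes had 24.9, 22.6 and 22.7, and in replicate 2 13.3, 11.2 and 11.6. Across the 1781 peaks, signal and run length gave Spearman's rho of -0.13, a weak relation among peaks that share their libraries.

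**Figure D2:**
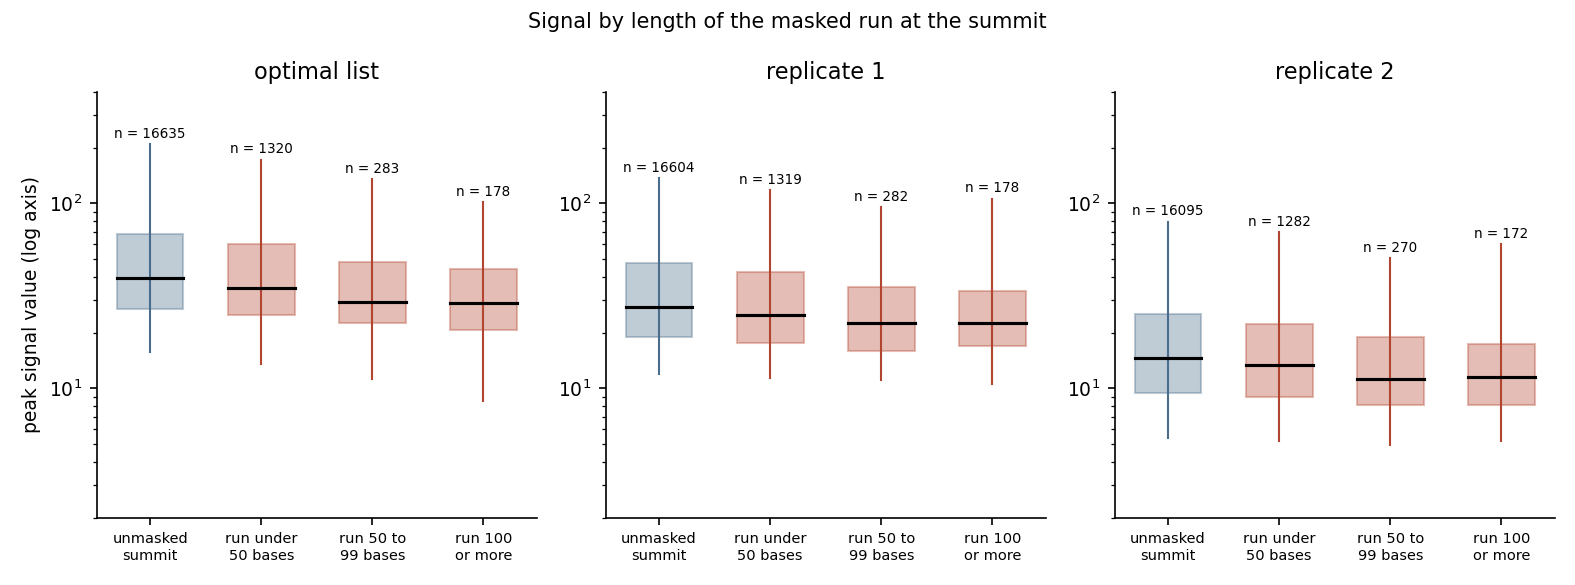
Peak signal value (y axis, log scale) by length of the masked run at the summit in the optimal list and in each replicate. Boxes span the quartiles with the median as a black line, and lines reach from the 5th to the 95th percentile. In all 3 panels the 3 classes of masked-summit peaks have lower medians than peaks with an unmasked summit.

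Weaker distal peaks were masked at the summit more often than stronger ones. Distal peaks were split by signal into 10 deciles of equal size. In the optimal list 120 of 1842 peaks of the strongest decile were masked at the summit (6.51%, interval 5.43 to 7.74), and 264 of 1841 of the weakest (14.3%, 12.8 to 16.02). Among the highest peaks of replicate 1 the share was 5.78% in the strongest decile, 10.8% in decile 9 and 9.79% in the weakest. For replicate 2 it was 6.42% in the strongest and 16.2% in the weakest. Further down each replicate's own list of 300000 peaks the share was higher. Among distal peaks ranked below 200000 it was 24.99% in replicate 1 and 25.5% in replicate 2.

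**Figure D3:**
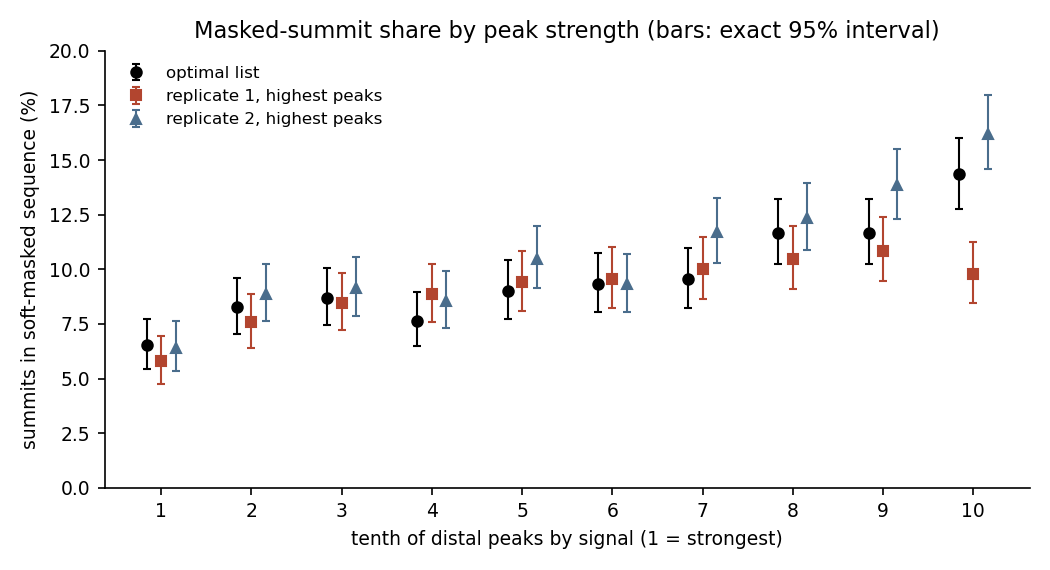
Share of distal summits in soft-masked sequence (y axis, percent, with exact 95% intervals) by decile of signal (x axis, 1 = strongest), for the optimal list and for the highest peaks of each replicate's own list. The strongest decile has the lowest share in every list, 6.51%, 5.78% and 6.42%.

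Most of these peaks were found in both replicates, though the exact summit moved. Of the masked-summit peaks 1117 (62.7%, interval 60.4 to 65.0) overlapped one of the highest peaks of both replicates, against 67.9% of all optimal peaks and 69.6% (68.9 to 70.3) of the other distal peaks. Runs under 50 bases had 64.8%, runs of 50 to 99 bases 55.5% and longer runs 58.4%, the last 2 with overlapping intervals. A peak of any rank overlapped in replicate 1 for 99.9% and in replicate 2 for 96.8%, against 99.8% and 96.8% of the other distal peaks. The optimal list was made from both replicates and each replicate list holds 300000 peaks, so overlap at any rank says little. Across the 1723 masked-summit peaks matched in both, log2 signals of the replicates gave Pearson's r of 0.80 and Spearman's rho of 0.69, against 0.84 and 0.77 for 16064 other distal peaks. These are correlations across peaks, which are not independent replicates.

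The base under the summit was less stable than the peak. Replicate summits lay a median of 8 bases (replicate 1) and 23 bases (replicate 2) from the optimal one, next to a median masked run of 29 bases. Only 61.1% of the overlapping replicate 1 peaks and 48.3% of those of replicate 2 had a masked summit of their own. With short runs the shares were 58.2% and 42.3%, and with runs of 100 bases or more 71.9% and 73.3%. Conversely, 3.81% and 5.47% of the other distal peaks were masked at the replicate's summit. A summit that moves by some bases leaves a short run more easily than a long one, so these shares are not a like measure of reproducibility.

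The 15 strongest masked-summit peaks were among the strongest EP300 sites of the liver. They ranked 23 to 242 in the optimal list, with signals of 358 to 529, and all 15 overlapped one of the highest peaks of both replicates. Their masked runs had 20 to 72 bases. Of the other distal peaks 92.9% were made of unique 32-base words throughout. Of those among the strongest 20% of distal peaks, 76.0% held a GATA match. Among the 15 strongest masked-summit peaks 14 had unique words throughout and 12 held a GATA match, near those shares. The first, in an intron upstream of Spire1, which encodes an actin nucleator, had 529 in the optimal list and 307 and 224 in the replicates. Next came a peak 9.88 kb upstream of Rnf145, which encodes a ubiquitin ligase (488, with 283 and 203 in the replicates). It was followed by one in an intron, nearest to Slc16a10, which encodes an aromatic amino acid transporter (484, with 280 and 207). These genes are only the nearest ones by TSS.

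Of the 15, those of F2rl2 and Hbb-y were nearest to genes of the blood lists. A peak 25.2 kb upstream of F2rl2, which encodes a thrombin receptor of mouse platelets, had 441 (269 and 171). The peak 6.06 kb upstream of Hbb-y, the embryonic beta-like globin gene, had 363 (217 and 147). It lies within the RefSeq annotation of the beta-globin locus control region (chr7:103857890-103877545), in the hypersensitive site 5′HS1 (chr7:103859003-103859602). Its window also matched the NFE2 sequence GCTGANTCA, the composite of GATA and E-box and the KLF sequence CCNCNCCC. These 2 peaks were high in both replicates.

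The others of the 15 belonged to no gene list. Among them were peaks 6.86 kb upstream of Foxo3, which encodes a forkhead factor (401, with 251 and 149), and 15.3 kb downstream of the TSS of Rbm38, which encodes an RNA-binding protein (358, with 226 and 135). The rest were nearest to Pabpc4 (422), Alg9 (422), Syt14 (414), March5 (407), Pced1b (393), Hectd4 (375), Mrm1 (368) and Hace1 (362). Alg9, Syt14 and Hace1 were the 3 of the 15 without a GATA match. In the replicates the last 8 peaks ranged from 205 to 259 and from 138 to 175. The optimal list was made from both replicates. High replicate values and overlaps of the 15 therefore follow in part from how they were chosen.

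Masked-summit peaks lay near genes of most of the 24 lists examined, in small numbers. The nearest TSS of the 1781 peaks belonged to 1488 genes, of which 237 had 2 or more such peaks and 11 had 4 or more. Bach2, Cd24a, Sgms1 and Wdr26 had the most, 5 each, out of 14, 25, 33 and 11 distal peaks. The 5 peaks of Wdr26, named after its values were seen, ran from a signal of 14.3 to 201. Introns and exons of any gene were counted, not only those of the nearest one. Of all masked-summit peaks 58.6% lay in introns, 37.1% between genes and 4.32% in exons, against 57.02%, 36.4% and 6.62% of the other distal peaks. The median distance to the TSS was 11.9 kb for these and 12.3 kb for the others.

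Among blood lists, erythroid genes had the most masked-summit peaks. Of 149 distal peaks whose nearest TSS was an erythroid gene's, 21 were masked at the summit (14.1%, interval 8.94 to 20.7, which includes the background of 9.67%), spread over 15 of 42 genes. Besides Hbb-y, the strongest was a peak 15.4 kb upstream of Gata1, the erythroid master factor gene (96.4, with 59.6 and 37.4 in the replicates). It was followed by one 18.6 kb downstream of the TSS of Cd24a, which encodes a surface antigen of developing blood cells (81.0, with 47.8 and 29.3). The median of the 21 was 31.2, against 62.4 for the other erythroid-gene peaks. Megakaryocyte and platelet genes had 3 of 43, led by F2rl2. Next was a peak 2.12 kb upstream of the nearest TSS of Plek, which encodes pleckstrin (148, with 93.7 and 53.3). The list of stem and progenitor genes had 3 of 62. Its strongest, 64.01 kb upstream of Lmo2, which encodes a bridging protein of the TAL1 complex, had 335 (189 and 146), and the others were a further Lmo2 peak (48.1) and one of Runx1, a stem cell transcription factor gene (13.7). The strongest Lmo2 peak thus exceeded all other members of the blood lists except those of F2rl2 and Hbb-y.

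Hepatocyte lists gave shares of 5.63% to 23.3%, each from 13 to 95 distal peaks. Genes of secreted proteins had 4 of 51, hepatocyte transcription factors 4 of 56, urea cycle and amino acid genes 6 of 54, glucose metabolism 4 of 71, lipid metabolism 10 of 95, bile acids 5 of 37, coagulation and complement 2 of 13, and acute phase 4 of 40. Xenobiotic metabolism had the highest share among them, 7 of 30 (23.3%, interval 9.93 to 42.3), the one list of the 24 whose interval lay above 9.67%, with the 24 lists not adjusted for. Its strongest peaks were those of Aldh1a1, a retinal dehydrogenase (59.6, with 32.3 and 25.1), Ephx1, an epoxide hydrolase (35.4, with 19.4 and 13.7), and Cyp2b10, a drug-induced cytochrome (34.3, with 21.9 and 12.4). The last 2 lay near the median of all masked-summit peaks, and the Ephx1 summit was in a tandem repeat.

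Single members of these lists stood higher. The peak 28.5 kb upstream of Cebpa, a master factor of hepatocyte and granulocyte genes, had 131 (85.9 and 45.4). Its summit lay in an annotated exon. A peak 5.20 kb upstream of Abcc2, which exports conjugated bilirubin into bile, had 82.1 (61.8 and 21.9). C3, the central complement gene, had 78.5 (55.9 and 23.5) at 5.00 kb upstream. Values near 70 were found by Slc25a15, the mitochondrial ornithine carrier (76.1), Hpd, an enzyme of tyrosine breakdown (73.0), and Plin2, a lipid droplet protein (71.4).

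Of the other lists, bile duct genes had 5 of 42, led by a peak in an intron, nearest to the water channel gene Aqp1 (248, with 158 and 89.9). Immediate early genes had 10 of 67. They were led by Egr1, a zinc finger factor gene (142, with 79.01 and 60.6), followed by Btg2, an antiproliferative gene (50.3). In the remaining lists, lymphoid genes had 1 of 6, interferon response genes 1 of 9, pancreas genes 1 of 2, and circadian clock genes 3 of 46, led by Per2, a core clock repressor (97.6, with 69.2 and 31.3). Endothelial genes had 4 of 54, and Kupffer cell and macrophage genes 2 of 12. Granulocyte, stellate, muscle and neuron genes had 0, of 7, 12, 2 and 8 distal peaks. So few distal peaks leave these lists without a usable share.

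GATA sequences were common at masked summits, though somewhat less frequent than at other distal peaks. Within 50 bases of the summit, 1 of the 4 GATA sequences occurred in 749 of the 1781 peaks (42.1%, interval 39.7 to 44.4), against 46.3% of all distal peaks and 46.8% of the other distal peaks. In windows centred 500 bases away the share was 17.3%, and in such flanking windows whose own centre is masked 13.9%. Long runs had GATA matches as often as short ones, in 43.3% and 42.7% of the peaks, and runs of 50 to 99 bases in 38.5%. Of the peaks with a match, 46.1% had one that overlapped the masked run itself. A match describes letters and does not show which protein was bound.

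Stronger masked-summit peaks held GATA matches more often. Over the 5 quintiles of distal peaks, from the strongest to the weakest, the share was 71.3%, 49.8%, 42.6%, 37.9% and 23.6%. Other distal peaks in the same quintiles had 76.0%, 49.6%, 41.4%, 36.1% and 29.4%. The intervals of the masked-summit peaks included the others' shares in the first 4 quintiles and lay below in the weakest (19.9 to 27.7%). Peaks with a match had a median signal of 43.0 and those without 28.9, against 51.3 and 33.5 among the other distal peaks. The masked-summit peaks were therefore weaker at both kinds of site.

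Some motifs were less frequent at masked summits than at other distal peaks, and others were more frequent. Of the liver motifs C/EBP was among the former, while the intervals for HNF1, HNF4 and HNF6 included the others' share. The C/EBP sequence TTGCNNAA was in 6.34% (interval 5.26 to 7.58) against 10.1% of other distal peaks, the GATA and E-box composite in 3.31% (2.53 to 4.25) against 4.85%, the ETS sequences CCGGAAG and CAGGAAG in 7.80% against 9.76%, and the steroid receptor sequence ACANNNTGT in 5.28% against 7.02%. More frequent were the KLF sequence CCNCNCCC, in 17.1% (15.4 to 18.96) against 10.55%, the IRF sequence GAAANNGAA, in 5.33% (4.34 to 6.48) against 2.89%, and the SP1 sequence GGGGCGGGG, in 1.01% (0.60 to 1.59) against 0.391%. The KLF sequence was more frequent also in runs under 50 bases (18.3%) than in longer ones (14.5% and 12.4%). These matches overlapped the masked run in most cases, 69.8% for KLF, 71.6% for IRF and 72.2% for SP1. The flanks of masked-summit peaks had 8.37% for KLF, 3.87% for IRF and 0.449% for SP1. Flanking windows whose own centre is masked had 10.6% for KLF, 4.0004% for IRF and 0.399% for SP1. For IRF the other distal peaks stood below their own flanks, 2.89% against 3.25%. The part of masked sequence as such in the higher KLF, IRF and SP1 shares was not tested.

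For 5 further motifs the interval at masked-summit peaks included the share of the other distal peaks. The forkhead sequence TGTTTAC, its variant TATTTAC or the further variant TGTTTGC was in 8.03% against 8.94%, the FOS and JUN sequence TGANTCA in 6.51% against 6.26%, the STAT sequence TTCNNNGAA in 5.67% against 5.30%, and the RUNX sequence TGTGGTT in 3.76% against 3.998%. The NFE2 sequence GCTGANTCA, which contains the FOS and JUN sequence, was in 2.41% (1.75 to 3.24) against 1.89%, and its flanks had 0.393%. The E-box CANNTG, like GATA and unlike these motifs, was less frequent at masked summits, in 44.0% (41.6 to 46.3) against 48.3%, with 41.5% in the flanks. No masked-summit peak held the CTCF sequence or the CREB sequence TGACGTCA, 0 of 1781, which allows a share of up to 0.168% by the limit of 3 counts and 0.207% by the exact interval. Other distal peaks had 0.325% and 0.295%.

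**Figure D4:**
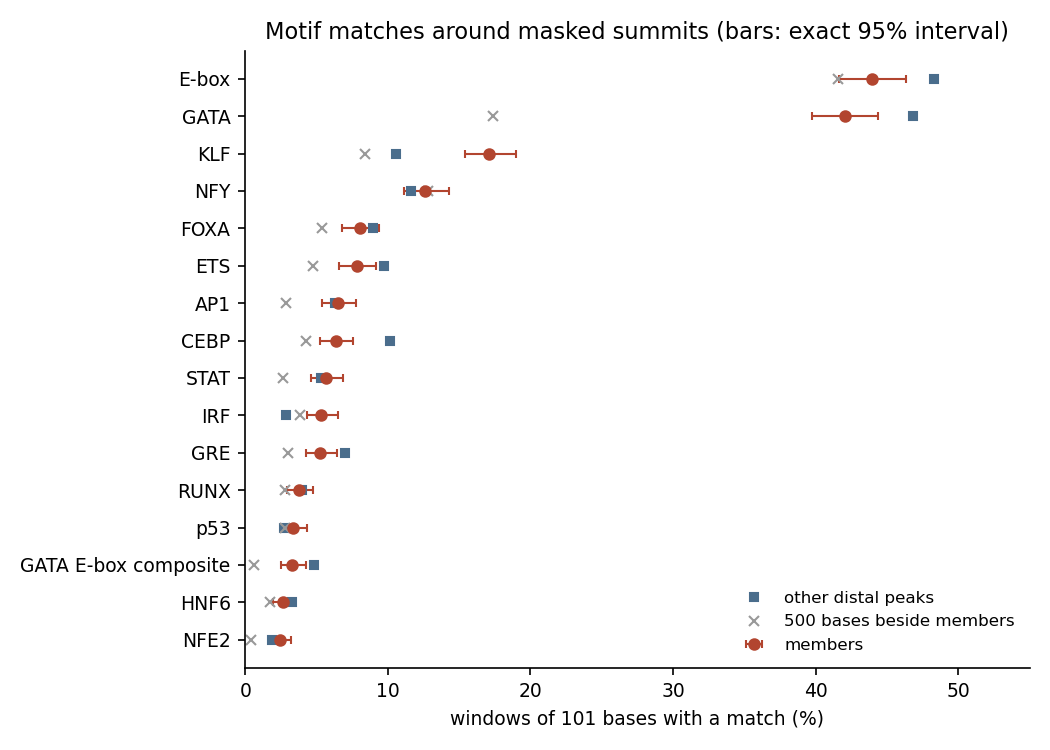
Share of windows, each reaching 50 bases to either side of its centre, that hold a match (x axis, percent) for the 16 motifs most frequent at masked summits, with exact 95% intervals, beside other distal peaks and windows 500 bases away. GATA stands far above its flank value in masked-summit peaks (42.1% against 17.3%), and KLF exceeds other distal peaks (17.1% against 10.55%).

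Base composition differed modestly. The median GC content within 50 bases of the summit was 45.5% against 47.5% in other distal peaks, and 60.6% against 71.8% held a CpG, with 39.3% in runs of 100 bases or more. The motif shares above were not corrected for composition, and its part in them was not tested.

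Related copies found within the masked stretch accounted for 126 of the 1781 peaks. Masked sequences within 100 bases of the summit were aligned with each other and linked at 60 or more aligned bases and 75% identity. Linked sets of 5 or more peaks, 8 in all, held 7.07% (interval 5.93 to 8.37) of the masked-summit peaks and 57.9% (50.25 to 65.2) of those with runs of 100 bases or more. Tandem repeats held 28 (1.57%, 1.05 to 2.26). The remaining 1627 were in neither class, most of them with runs too short to reach 60 aligned bases. With the whole window of 100 bases on each side aligned, masked or not, 346 peaks (19.4%) fell into groups, the largest of 278, and with links of 80 bases and 80% identity the share was 2.81%.

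The largest group, with 36 peaks on 17 chromosomes, was related to a SINE. Of its 36 members 31 aligned with the B1 element that RefSeq annotates at chr7:103823699-103823836, in the beta-globin locus, at 40 or more bases and 70% identity. B1 is a short rodent SINE derived from a signal recognition particle RNA. Its members had a median signal of 23.8, from 7.58 to 168, with medians of 20.99 and 11.4 in the replicates, and 10 of 36 held a GATA match. The strongest were those of Ccnd3, which encodes a cyclin of late red cell divisions (168, with 106 and 61.2), Trim14 (157, with 112 and 42.6) and Syne3 (145, with 82.0 and 63.9). In all, 65 masked-summit peaks aligned with that B1 element, with a median signal of 26.8 and GATA matches in 41.5%.

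Group 2 had 24 peaks and low signals as well. Its median was 28.2, from 11.5 to 143, with 19.1 and 7.92 in the replicates, and 9 of 24 held a GATA match. Plk3, a stress-response kinase gene, had its strongest peak (143, with 103 and 38.6), followed by Kidins220 (71.1) and Pak1ip1 (56.7). No element that RefSeq annotates matched it, and the group is left unnamed. Chromosomes 1 to 19 and X held 209465 copies of the representative sequence of group 1 and 111632 of group 2.

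GATA matches within 50 bases of the summit were found in 18 of 21 peaks of group 3, 9 of 14 of group 4, 6 of 10 of group 5 and 5 of 6 of group 7. Group 3 was the largest of these, and its median signal of 44.9 (28.5 and 12.9 in the replicates) was above that of masked-summit peaks as a whole. Its strongest peaks were those of Jmy, a p53 cofactor gene (255.9, with 167 and 88.9), Golim4, a Golgi protein gene (139, with 91.4 and 46.3), and Adora2b, an adenosine receptor gene (116, with 77.4 and 36.3). The word acTGATAAgt stood within 100 bases of the summit in 14 of the 21, at a median of 38 bases from it. It was the GATA word shared by most members and was chosen for that. Of the copies of the group's representative sequence 1 to 100 kb from a TSS without an EP300 summit, 21006 of 27893 (75.3%) also held it. So did 9 of the 13 copies with a summit.

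Groups 4 and 5 had such a word in fewer of their copies. Each word was chosen from the group's own peaks, so a higher share at copies with a summit is not an independent result. Group 4 had a median signal of 29.6, with 64.2 at a second Pced1b peak as its strongest. Its word agTTATCAca was in 5 of its 14 peaks, in 61.9% of 14239 copies without a summit and in 5 of 5 with one. In group 5, with a median of 45.4, gaTGATAAtg was in 6 of the 10 peaks, in 47.1% of 20911 copies without a summit and in 4 of 6 with one. Its strongest peaks in the optimal list were those of Cox7a2l (92.6, with 61.9 and 31.99 in the replicates), Dnajb12 (78.6, with 112.2 and 59.3) and Ybx3 (55.4, with 38.4 and 14.3). In both replicates the value for Dnajb12 stood above that for Cox7a2l. It is that of the strongest overlapping peak, which may have another summit. Few copies of any kind were under a summit. Copies were counted as matches to a group's representative sequence. Those under a summit were fewer than the group's peaks, 13 against 36 in group 1 and 2 against 6 in group 8. Shares of copies are therefore those of such matches, not of whole groups. In the 7 groups counted, between 0.00404% and 0.0466% of the copies 1 to 100 kb from a TSS were under a summit. Groups 3 and 7 had the highest of these shares, 13 of 27906 (0.0466%, interval 0.0248 to 0.0796) and 5 of 11060 (0.0452%, 0.0147 to 0.105), and group 8 the lowest, 2 of 49553.

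Groups 6, 7 and 8 were smaller. Group 6, of 9 peaks and rich in repeats of GT, was left out of the count of copies. In group 7 the shared GATA word was also chosen from the group's own peaks. It was in 2 of 5 copies with a summit and in 1.99% of those without. Any GATA match was in 4 of 5 and in 16.4%. By that wider measure group 1 had 5 of 13 and 5.33%, group 3 13 of 13 and 86.7%, group 4 5 of 5 and 78.8%, and group 5 5 of 6 and 73.3%. Groups 2 and 8 had 0 of 7 and 0 of 2, against 9.21% and 6.30%. At such low shares, so few copies with a summit do not give a direction. The 6 peaks of group 7 included the strongest of all peaks with a run of 100 bases or more. It lay in an intron and was nearest to Emilin2, an extracellular matrix gene named after its values were seen (209, with 134 and 73.2). Group 8 had 6 peaks with a median of 27.6 and the smallest share of unique sequence, a median of 49.1% of 32-base words.

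Tandem repeats of short units were the rarest class at the 80% match used. A 70% match gave 70 peaks. The GT-rich peaks of group 6 are not among the 28 called at 80%. Units of 4 bases were the most frequent, with 13 of the 28 peaks, followed by 7 with units of 2 and 4 with units of 5. Their median signal was 26.8, with 20.04 and 10.9 in the replicates, and 18 of 28 overlapped one of the highest peaks of both replicates. GATA matches were found in 1 of 28. The strongest was an intronic peak nearest to Fer1l6 with a unit of 3 bases (234, with 160 and 74.5). Next was a peak 2.63 kb upstream of Txnip, a redox and glucose-sensing gene, with a unit of 6 bases (133, with 95.1 and 39.8). Its window is shown with the masked run in capitals.
Txnip, chr3:96555297-96555357: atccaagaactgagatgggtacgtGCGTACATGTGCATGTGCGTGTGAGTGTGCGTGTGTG
Unmasked sequence began a few bases from the summit.

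Most masked-summit peaks lay in sequence that is unique in the genome at the scale of a short read. All 32-base words within 100 bases of the summit occurred once in 1294 of the 1781 (72.7%, interval 70.5 to 74.7), against 92.9% (92.5 to 93.2) of the other distal peaks. The share was 85.6% for runs under 50 bases, 50.9% for 50 to 99 bases and 11.2% for longer runs, where a median of 76.5% of the words were unique. Fewer than 50% of the words were unique at 31 peaks, of which 26 had long runs. A 32-base word with 10 or more copies was present at 298 of the peaks (16.7%), against 2.82% of the others. The authors' treatment of reads that align to several places was not stated, and the part of this in the signals and in the scarcity of long runs was not tested. Among peaks whose words were all unique, the signal medians were 34.5 for 1294 masked-summit peaks and 39.6 for 15447 others, a log2 ratio of -0.20 and thus close to the -0.22 of all.

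Some strong peaks had little unique sequence. Of the strongest 20% of masked-summit peaks, those with the fewest unique words were near Dnajb12 (27.1% of words, signal 78.6), Csf2rb2, a cytokine receptor gene (45.9%, signal 164, with 104 and 62.0 in the replicates), and Cacna1c, a calcium channel gene (46.5%, signal 70.4). The words at Csf2rb2 had at most 2 copies. At Cacna1c one word had 5534. The values at these 3 peaks are uncertain for that reason.

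**Figure D5:**
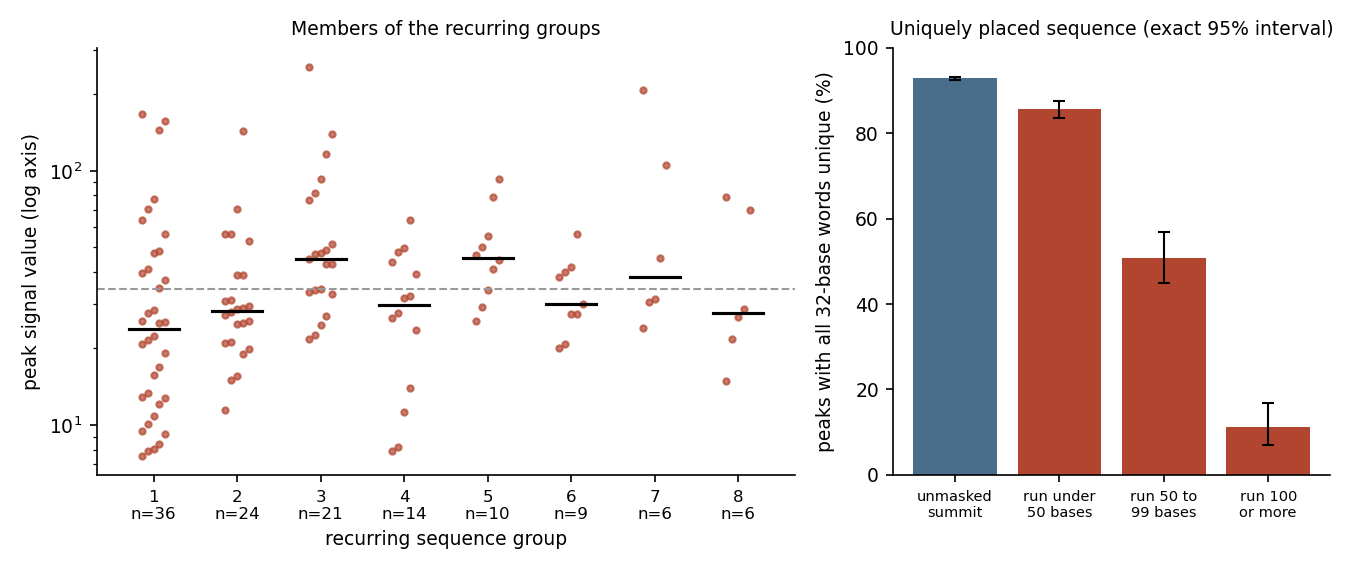
Left, signal value of each peak (y axis, log scale) in the 8 recurring sequence groups, with group medians as black lines and the median of masked-summit peaks outside the groups as a dashed line. Right, share of peaks (percent, exact 95% intervals) with all 32-base words within 100 bases of the summit unique, which falls from 92.9% at unmasked summits to 11.2% at runs of 100 bases or more.

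Masked-summit peaks stood among other EP300 peaks as often as the rest. Another optimal summit lay within 12 kb of 69.9% of them and of 67.4% of the other distal peaks, and 4 or more lay that close in 13.1% and 12.8%. Known regulatory elements were rare among them. RefSeq's curated enhancers held 3 of the 1781 (0.168%, interval 0.0348 to 0.491), against 141 of 16635 (0.848%, 0.714 to 0.999). The wider count that follows is not given for the other distal peaks. With control regions, hypersensitive sites, a promoter and a further regulatory region included, 7 masked-summit peaks lay in an annotated element. Beside the Hbb-y peak these included one near Nprl3, in the alpha-globin hypersensitive site HS-29 (14.8), and one near Epb41, a red cell skeleton gene, in a VISTA enhancer (24.4). Both were named after their values were seen, and both were below the median of masked-summit peaks.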

How the data were processed

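EP300 ChIP-seq peaks of 2 newborn mouse liver replicates were used as deposited by the authors, with mm10 coordinates per the labels. The signal value of each peak and the IDR score are scores made by the authors, and their scale is not stated. The q-values of the replicate lists are −log10 values by the layout of the deposited peak files and were not used in any comparison. Aligner, peak caller, IDR threshold, versions and treatment of reads with several alignments were not named by a source used here. No read counts were used, so depth is unknown.

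Summits on chromosomes 1 to 19 and X of the optimal list (26844 peaks, of 26883 deposited) were placed on GENCODE M21 protein-coding TSSs and on GRCm38, whose lower case was taken as masking. Printed sequences are from RefSeq GRCm38.p6. Replicate values are those of the strongest overlapping peak, and the highest peaks of a replicate are its 26844 highest by signal. Word copies were counted in the genome on both strands, and 29 motifs were searched. Masked sequences were linked with BLAST 2.17.0 at 60 bases and 75% identity. Tandem repeats had units of up to 6 bases. Intervals are exact Clopper-Pearson for shares and order-statistic for medians, and cover the sampling of peaks only. Python 3.11.15, numpy 2.4.6, pandas 2.3.3, scipy 1.17.1 and numba 0.67.0 were used, and the counting steps were tested on simulated data.

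The members, marker genes and gene lists were chosen with earlier results of these data known. Peaks were named by rule: the 15 strongest, the 3 strongest of each gene list, of each of the 5 largest groups and of the tandem repeats, and the 3 with the fewest unique words among the strongest 20%. Of 490 listed symbols, 487 were matched. Some named peaks are not reported here.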

Additional observations from a re-analysis of the deposited data

How the results depend on the processing

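The share of masked summits (9.67%) was 8.05% among the strongest 50% of peaks, 4.34% with at least 50% of the bases within 50 of the summit masked, 2.50% with a run of 50 bases or more, and 9.07% to 10.7% with 1 replicate alone. The log2 signal ratio (-0.22) was negative in every alternative run: -0.25 in the conservative list, -0.0555 in the strongest 50%, -0.18 at 5 to 50 kb, -0.23 with TSSs of all gene types, -0.34 with the masked window, -0.26 by rank, -0.41 with a run of 50 bases or more, -0.20 with unique words only, and -0.23 to -0.14 with 1 replicate alone. The GATA share (42.1%) was 44.6% in the conservative list, 56.6% in the strongest 50%, 56.4% within 100 bases and 39.02% to 42.1% with 1 replicate alone. The share among the highest peaks of both replicates (62.7%) was 73.7% in the conservative list, 95.8% in the strongest 50%, 60.1% with the masked window, 56.6% with a run of 50 bases or more, 55.4% at an overlap of 50% of the peak, 26.6% among the strongest 10000 of each, and 74.2% to 81.5% in 1 replicate alone. The share in recurring groups (7.07%) was 3.19% in the strongest 50%, 4.01% at 5 to 50 kb, 16.9% with the masked window, 2.81% at 80 bases and 80% identity, 27.3% with a run of 50 bases or more, 19.4% with the whole window aligned, and 6.07% to 8.70% with 1 replicate alone. Tandem repeats (1.57%) were 0.664% in the strongest 50%, 3.62% with the masked window, 3.93% at a 70% match and 5.21% with a run of 50 bases or more. The alternatives with a run of 50 bases or more, with unique words, and with the whole window were chosen after seeing the data. The cause of these differences was not tested, apart from what each setting itself selects. Depth is unknown and sets no limit that could be computed here.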
